A study of Mus musculus with 3 samples.

Results

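The genes that drive and restrain cell division and that copy the genome were followed in the cytosolic RNA of mouse macrophages. Members were taken by symbol from the deposited transcript tables, and all 36 symbols matched a gene among the 55536 annotated genes. They were sorted by role into 8 classes, from the cyclins and kinases of G1 to the inhibitors of cyclin-dependent kinases. The RNA was total RNA after removal of ribosomal RNA, from the cytosol of bone-marrow-derived macrophages of strain C57BL/6J, which are primary cells grown out of marrow precursors. All libraries came from cells held in 100 ng/ml Lipid A, the part of bacterial lipopolysaccharide that Toll-like receptor 4 recognises, for 12 h. The cells were then kept 12 h after washout and given 100 ng/ml Lipid A again for 30 min. These 3 biological replicates form a single group with no untreated cells, so no value below is a response to Lipid A. The labels give the same donor entry for all of them, so the SDs and p-values below describe differences among these samples, and part of those may be technical. They state neither age nor sex.

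Division is driven by cyclin-dependent kinases, each active only when bound to a cyclin. In G1, D-type cyclins with Cdk4 or Cdk6 phosphorylate the retinoblastoma protein Rb1, which releases E2F factors such as E2f1, and E2F turns on cyclin E and the replication genes. The MCM proteins form the ring-shaped helicase that is loaded on DNA before S phase, and Cdk1 with B-type cyclins then starts mitosis. Macrophages grown with colony-stimulating factor can divide, and activation through Toll-like receptor 4 is known to halt them in G1.

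The 3 libraries held between 28759407 and 54709008 expected counts in annotated genes, with replicate 1 the shallowest. Levels are in TPM, a share of all transcripts in a library per unit of gene length, and a gene was called detected where all 3 libraries gave it 1 TPM or more. All 10 macrophage markers were detected, among them the defining receptor gene Csf1r, and none of 8 myeloid and stem progenitor markers or 6 stromal markers was. Of 8 neutrophil, 8 lymphoid and 6 erythroid markers, 3, 1 and 1 were detected.

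Before the values, 6 promoters are shown, because E2F, the mitotic repressor element and p53 act at such sites and the classes differed in which short words their promoters hold. RefSeq windows of build GRCm38.p6, from 250 bases before to 50 bases after the annotated start, were given for 28 of the 36 members and for 27025 genes in all. The 8 without a window were Ccnd1, Ccnd2, Ccne2, Ccna2, Mcm4, Aurkb, Rb1 and Cdkn1c. The lines give the last 170 bases before the start in the direction of the gene. Capitals mark any match on either strand to the E2F words TTTCCCGC, TTTCGCGC, TTTGCCGC and TTTGGCGC, to TTTGAA, the core of the cell cycle genes homology region (CHR), to CCAAT, and to CATG, 6 bases of any kind and CATG, the core of a p53 site. In Mcm5 and Mcm6 a pair of E2F words on opposite strands overlap and appear as a single run of capitals. Minus-strand matches read as their reverse complement, so that CCAAT appears as ATTGG.
Mcm5 (chr8:75109339-75109508, plus strand): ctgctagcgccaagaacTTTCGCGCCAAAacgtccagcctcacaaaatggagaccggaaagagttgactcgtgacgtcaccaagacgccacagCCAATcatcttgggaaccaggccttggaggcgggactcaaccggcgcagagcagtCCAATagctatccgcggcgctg
Mcm6 (chr1:128359706-128359875, minus strand): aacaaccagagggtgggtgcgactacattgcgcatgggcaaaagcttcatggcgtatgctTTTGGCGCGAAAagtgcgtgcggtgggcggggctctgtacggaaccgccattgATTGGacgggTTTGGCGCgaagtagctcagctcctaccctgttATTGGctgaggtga
Cdk1 (chr10:69352913-69353082, minus strand): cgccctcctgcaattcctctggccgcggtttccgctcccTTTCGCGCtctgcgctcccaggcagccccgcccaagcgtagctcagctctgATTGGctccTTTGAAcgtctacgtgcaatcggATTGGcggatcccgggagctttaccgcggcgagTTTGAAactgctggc
Ccnb2 (chr9:70421555-70421724, minus strand): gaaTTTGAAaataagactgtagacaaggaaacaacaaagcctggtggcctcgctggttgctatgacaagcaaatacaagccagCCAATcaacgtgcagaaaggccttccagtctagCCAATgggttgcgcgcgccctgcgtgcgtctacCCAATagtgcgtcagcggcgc
Cdc20 (chr4:118437344-118437513, minus strand): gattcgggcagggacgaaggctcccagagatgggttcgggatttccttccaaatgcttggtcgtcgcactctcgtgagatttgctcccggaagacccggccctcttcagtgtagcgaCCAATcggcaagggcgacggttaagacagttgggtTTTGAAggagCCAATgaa
Cdkn1a (chr17:29090809-29090978, plus strand): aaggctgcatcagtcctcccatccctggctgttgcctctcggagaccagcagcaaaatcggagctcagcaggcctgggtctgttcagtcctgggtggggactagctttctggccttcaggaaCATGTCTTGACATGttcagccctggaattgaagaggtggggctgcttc

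Matches were counted per gene, since some genes have several windows (32851 windows in all). An E2F word lay in a window of 7 of 28 members (25%), against 2.61% of all genes. These were Cdk1, Cdk2, Cdkn2a, Mcm3, Mcm5, Mcm6 and Mcm7. The MCM class held 4 of these 7, out of 5 MCM genes with a window. None of the 4 DNA synthesis, 7 mitosis and 3 G1 genes with a window held an E2F word. TTTGAA lay in a window of 9 members (32.1%), against 20.2% of all genes. Of those 9, 6 were among the 7 mitosis genes with a window (Aurka, Bub1b, Cdc20, Mki67, Plk1 and Top2a), and the others were Ccnb2, Cdk1 and Mcm2. CCAAT lay in 22 of 28 (78.6%, against 41.1%), including every gene with a window in the MCM, mitosis and mitotic cyclin classes. TATAAA was found in Cdk6 alone (1 of 28, against 15.7%). The p53 word, which was added to the search after the sequences had been seen, was found in 1 member, Cdkn1a, against 0.833% of all genes. It began 48 bases before the distal start of that gene. A match is a description of the letters, not a bound site.

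Of the 36 members, 23 were detected, or 63.9%, against 17.2% of all annotated genes and 41.2% of protein-coding genes. Detection differed by role. All 5 G1 cyclins and kinases, all 6 MCM subunits, Rb1 and E2f1 were detected, as were 3 of 4 DNA synthesis genes and 3 of 4 inhibitors. Only 2 of 8 mitosis genes, 1 of 4 S-phase cyclins and Cdk2, and 1 of 3 mitotic cyclins and Cdk1 reached the limit. These counts depend on the scale. With TPM rescaled to nuclear protein-coding genes 32 of 36 were detected, against 46.6% of protein-coding genes, and those still missing were Ccnb2, Plk1, Cdc20 and Cdkn2a. On that scale 6 of 8 mitosis genes and all 4 of the S-phase class passed, so most of the contrast in detection between roles was lost. The second quantification as deposited gave 19 of 36, against 34.4% of protein-coding genes. Class medians of mean TPM ran from 13.9 in the G1 class and 8.80 for Rb1 and E2f1 through 5.05 for inhibitors, 3.68 for MCM and 3.09 for DNA synthesis to 0.922, 0.887 and 0.75 for the S-phase, mitotic cyclin and mitosis classes. In bulk RNA a smaller number of dividing cells and less RNA per cell cannot be told apart.

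**Figure D1:**
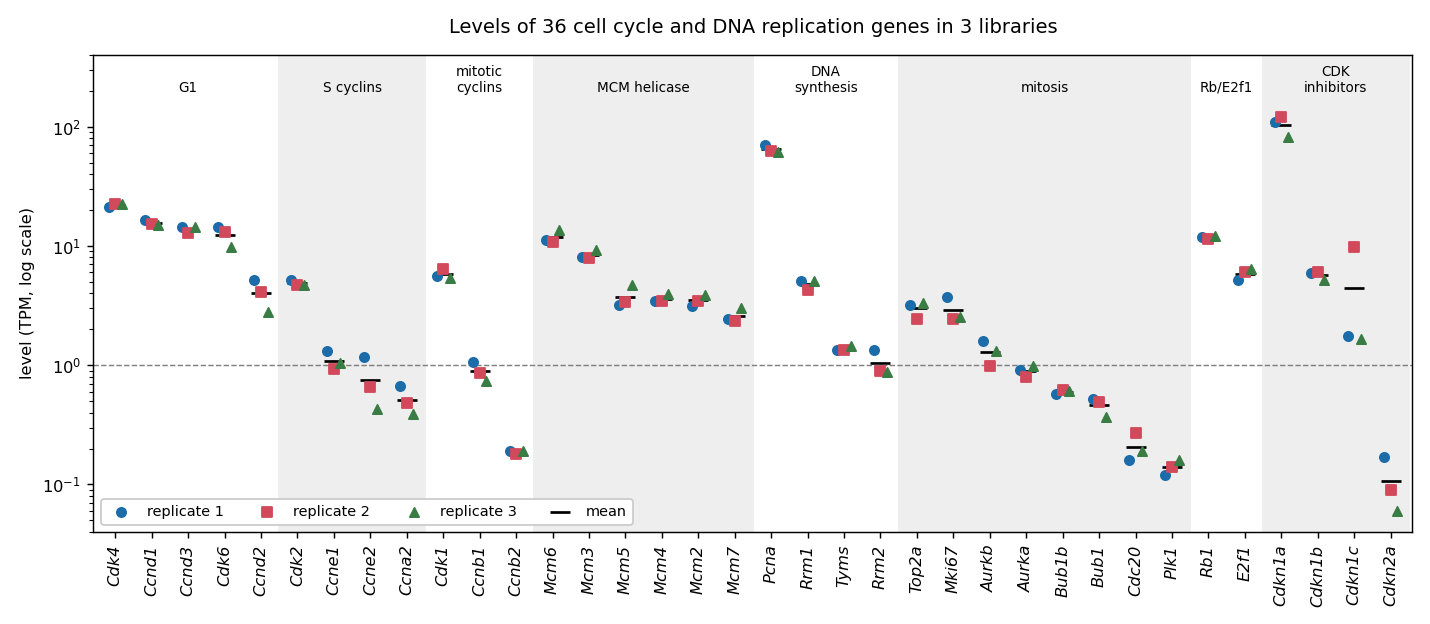
TPM (log axis) of the 36 members, grouped by role, in replicates 1, 2 and 3 (symbols) with the mean (bar) and the detection limit of 1 TPM (dashed). Cdkn1a and Pcna stood highest, 2 of the 8 mitosis genes lay above the limit in every library, and Cdkn1c was high in replicate 2 alone.

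Among the inhibitors, Cdkn1a, which encodes p21 and is a classical target of p53, was the most abundant member. The gene lies on the plus strand of chromosome 17, from 29090976 to 29100727. Its level was 109 TPM in replicate 1, 120 in replicate 2 and 82.2 in replicate 3, or 104 ± 19.5 TPM (SD, n = 3). Replicate 3 was the low library, and the mean lay above 95.3% of detected protein-coding genes. Cdkn1b, which encodes p27 and holds Cdk2 inactive in resting cells, stood at 5.95, 5.99 and 5.15 TPM. Within each library Cdkn1a exceeded Cdkn1b by 4.17, 4.30 and 3.97 on the log2(TPM + 0.1) scale, a mean of 4.15 ± 0.17 (SD, n = 3) or 17.7-fold. Such a within-library difference was called when its sign was the same in all 3 libraries and its mean exceeded 3 SD, and this one was. With 3 libraries the smallest p that a two-sided exact test by flipping signs can reach is 0.25, and all 8 pairs compared here gave that value before and after Benjamini-Hochberg adjustment.

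Transcript assignment placed 96.8%, 97.4% and 96.0% of the Cdkn1a level in Cdkn1a-201, which starts at position 29093769 of chromosome 17 on the plus strand of mm10. The distal start printed above belongs to Cdkn1a-202, whose first base is 29090979 and which held 1.70%, 1.59% and 2.03%. The window with the p53 word is thus that of a minor start in these libraries.

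Cdkn2a is 1 gene with a pair of first exons, encoding the Cdk4 and Cdk6 inhibitor p16 and the Mdm2 inhibitor p19ARF. It received 5, 6 and 3 expected counts and stood at 0.17, 0.09 and 0.06 TPM, the lowest mean of the 36. Cdkn2a-201 starts at 89282192 on the minus strand of chromosome 4, at the inner first exon (p16), and Cdkn2a-202 at 89294653, the outer one (p19ARF). The inner form took 5, 4.21 and 3 counts and the outer form 0, 1.79 and 0, too few to rank the forms.

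Cdkn1c encodes p57, an inhibitor expressed from the maternal allele of an imprinted cluster on chromosome 7 (143458339 to 143461050, minus strand, mm10). It was the member that varied most between libraries. It stood at 1.75 TPM in replicate 1, 9.81 in replicate 2 and 1.66 in replicate 3, from 109, 1313 and 174 expected counts. Replicate 2 alone was high, 6.47-fold above the mean of the others after scaling the counts with TMM (trimmed mean of M values) factors, and 6.91-fold in the second deposited quantification. Among 11504 nuclear protein-coding genes that averaged 10 or more counts, it ranked 10th for excess in replicate 2. Its biological coefficient of variation was 0.58, against 0.15 for genes of its abundance. A chi-square test of homogeneity of the counts, adjusted over 13410 genes, gave p = 6.3e-237. Without replicate 2, replicates 1 and 3 did not differ beyond counting noise (adjusted p = 0.54, 3.85 and 3.48 CPM (normalised counts scaled by library size)).

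The neighbours of Cdkn1c, chosen after its values were seen, did not share this. Among 17 genes within 500000 bases that averaged 10 or more counts, the log2 ratio of replicate 2 to the mean of the others ran from -1.24 to 0.64, against 2.69 for Cdkn1c. The nearest were Slc22a18 at -0.01, the nucleosome assembly gene Nap1l4 at 0.09 and Cars at -0.13. The lowest was Kcnq1ot1, the long noncoding RNA that silences the paternal copy of the cluster, at 14.6, 8.58 and 28.02 CPM. Summed TPM was 0.17, 0.07 and 0.05 over the 6 stromal markers (Lepr at 0 in every library). Over the 8 progenitor markers it was 0.41, 0.54 and 0.57 (Elane at 0 in replicate 1). Summed neutrophil markers were at 9.44, 12.2 and 10.8 TPM in replicates 1, 2 and 3. Summed lymphoid markers were at 1.70, 1.35 and 2.02 TPM, and erythroid markers at 53.6, 55.8 and 49.1 TPM. Neutrophil and erythroid sums were thus also highest in replicate 2, by far less than Cdkn1c. The part of any of these cell types in the Cdkn1c result was not tested.

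**Figure D2:**
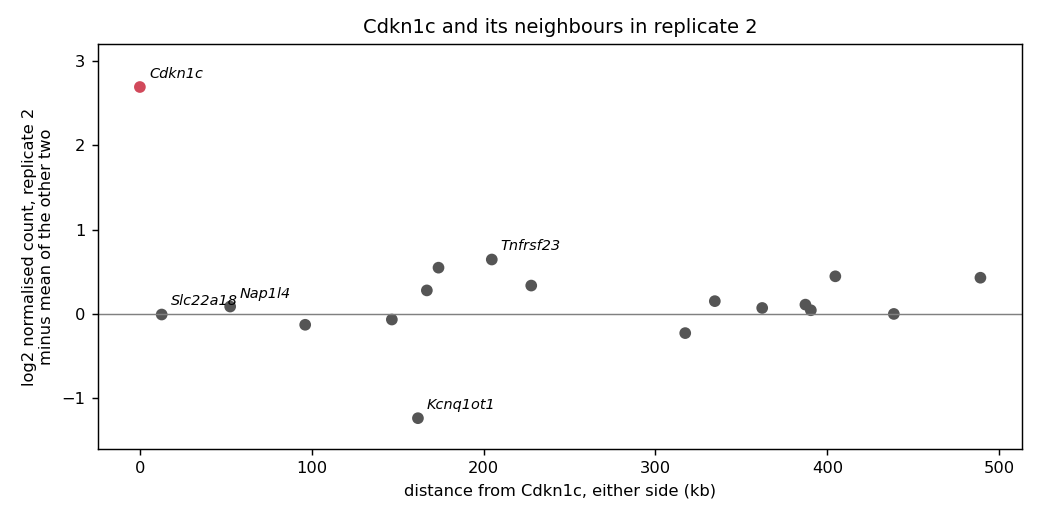
Log2 ratio of replicate 2 to the mean of the other libraries (TMM-normalised counts) against distance from Cdkn1c in kb, either side, for Cdkn1c (red) and 17 neighbours (grey). Cdkn1c stood at 2.69 and its neighbours between -1.24 and 0.64.

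In the G1 class Cdk4, a kinase partner of the D-type cyclins, was highest at 21.04, 22.29 and 22.35 TPM. Cdk6, its close relative on the plus strand of chromosome 5 (3341485 to 3531008), stood at 14.5, 13.1 and 9.76 TPM. Cdk6 was low in replicate 3, and Cdk4 was nearly level. Cdk4 exceeded Cdk6 by 0.83 ± 0.33 (SD, n = 3, log2), below 3 SD and so not called, with the sign the same in all libraries. Without replicate 1 or replicate 3 the difference was called, at 0.98 and 0.65. Among the D-type cyclins, Ccnd1 stood at 16.6, 15.4 and 15.1 TPM and Ccnd3 at 14.4, 12.9 and 14.3. Their difference, 0.18 ± 0.09 (log2, SD, n = 3), was not called, though it was without replicate 3 (0.23). Ccnd2 was the lowest of the class at 5.14, 4.10 and 2.77 TPM. Ccnd1 exceeded it by 1.99 ± 0.38 (SD, n = 3, log2) or 3.96-fold, which was called.

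Rb1, the gatekeeper that E2F factors bind, was steady at 11.8, 11.3 and 12.1 TPM. E2f1 stood at 5.20, 6.02 and 6.38 TPM, lowest in replicate 1. Rb1 exceeded E2f1 by 0.99 ± 0.15 (SD, n = 3, log2) or 1.99-fold, which was called.

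S-phase and mitotic cyclins were low, whereas their kinases were not. Cdk2, the partner of cyclins E and A, stood at 5.22, 4.73 and 4.70 TPM. Ccne1 stood at 1.31, 0.92 and 1.05 TPM, and Ccne2 at 1.17, 0.65 and 0.43. Their difference of 0.57 ± 0.50 (SD, n = 3, log2) was not called. Ccna2, the cyclin of S phase and G2, was lower still at 0.67, 0.48 and 0.39 TPM. Cdk1 stood at 5.55, 6.45 and 5.39 TPM, and its partners Ccnb1 at 1.06, 0.86 and 0.74 and Ccnb2 at 0.19, 0.18 and 0.19. Cdk1 exceeded Ccnb1 by 2.59 ± 0.26 (SD, n = 3, log2) or 6.01-fold, which was called. Over coding transcripts alone, an alternative chosen after the data were seen, the difference was smaller at 1.79 ± 0.17 and still called. Ccnb2 rested on 12, 23 and 21 counts.

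All 6 subunits of the MCM helicase were present at unequal levels, although the ring holds a copy of each. Mcm6, on the minus strand of chromosome 1 (128331590 to 128359664), was highest at 11.3, 10.8 and 13.6 TPM. Mcm3 followed at 8.01, 7.97 and 9.15 TPM, of which coding transcripts held 4.19, 4.65 and 5.51 TPM in the first quantification. Mcm5 (3.74 ± 0.80 TPM, SD, n = 3), Mcm4 (3.61 ± 0.31) and Mcm2 (3.49 ± 0.35) overlapped. Mcm7 was lowest at 2.43, 2.34 and 2.99 TPM. In each gene replicate 3 was the high library.

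Among DNA synthesis genes, Pcna, the sliding clamp that tethers polymerases, stood at 70.4, 62.0 and 61.8 TPM, above 92.2% of detected protein-coding genes. Its gene spans 132249162 to 132253314 on the minus strand of chromosome 2. Rrm1 and Rrm2 encode the large and small subunits of ribonucleotide reductase, which makes deoxynucleotides. Rrm1 stood at 5.05, 4.28 and 5.07 TPM and Rrm2 at 1.35, 0.90 and 0.88. Rrm1 exceeded Rrm2 by 2.12 ± 0.29 (SD, n = 3, log2) or 4.35-fold, which was called. Tyms, thymidylate synthase, stood at 1.33, 1.34 and 1.44 TPM.

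In the mitosis class only Top2a and Mki67 were detected in TPM as deposited. Top2a, the topoisomerase that untangles chromosomes, stood at 3.21, 2.46 and 3.34 TPM, and the proliferation antigen Mki67 at 3.75, 2.42 and 2.53 TPM. The Aurora kinases Aurkb and Aurka had means of 1.29 ± 0.30 and 0.90 ± 0.10 TPM (SD, n = 3). The spindle checkpoint genes Bub1b and Bub1 had means of 0.60 ± 0.03 and 0.46 ± 0.08 TPM. Cdc20, which activates the anaphase-promoting complex, stood at 0.21 ± 0.06 TPM. Plk1, a master kinase of mitosis, was lowest at 0.12, 0.14 and 0.16 TPM from 11, 28 and 27 counts. No member had a count of 0 in any library.

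The libraries were next compared with each other, with the counts scaled by TMM. Of 35 members with a mean count of at least 10 (Cdkn2a fell below), 20 differed between libraries beyond counting noise, or 57.1%, against 66.2% of all 13410 genes tested. Whether the members' share lay below or above that of all genes depended on the setting. The median coefficient of variation was 0.15 for members and 0.13 for all genes. Of the 20, only Cdkn1a, Ccnd2 and Mcm3 remained called whichever library was left out. The same count was not made over all genes, so whether this is unusual was not tested. The share of members was 34.3% (12) without replicate 1 and 31.4% (11) without replicate 3, against 53.2% and 44.2% of all genes tested. It was above the share of all genes without replicate 2, at 51.4% (18) against 44.3%, and with no count minimum, at 55.6% (20 of 36) against 41.1%.

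The 6 MCM genes took the same order of libraries. All 6 were lowest in replicate 1 and highest in replicate 3, against 34.8% and 32.4% of genes tested. Their median log2 ratio to the other libraries was -0.24 in replicate 1, 0.00 in replicate 2 and 0.22 in replicate 3, against -0.01, 0.04 and -0.01 for all genes tested. The chi-square test was passed by 5 of 6, but also by 66.2% of all genes tested. Mcm6 (adjusted p = 8.1e-11), Mcm5 (6.9e-08) and Mcm3 (9.0e-06) were ahead and Mcm7 missed it (0.056). By the same test without replicate 3, replicates 1 and 2 did not differ for Mcm4 (0.24), Mcm5 (0.096), Mcm6 (0.42) and Mcm7 (0.20). Without replicate 1, replicates 2 and 3 did not differ for Mcm2 (0.37), Mcm4 (0.089) and Mcm7 (0.24). All 6 were also lowest in replicate 1 with DESeq2 size factors, with library totals, with TPM rescaled to nuclear protein-coding genes and in the second quantification, but only 3 were in TPM as deposited, the other 3 being lowest in replicate 2. The place of replicate 3 held under every scaling of the first tables, whereas in the second quantification 4 of 6 were highest in replicate 2. Of the 30 other fork and nucleotide supply genes described below, 15 were lowest in replicate 1 and 15 highest in replicate 3 with TMM. The depth of replicate 1 was the lowest, and its part in the MCM result was not tested.

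The 3 tested inhibitors moved otherwise. Cdkn1a, Cdkn1b and Cdkn1c were all highest in replicate 2 and lowest in replicate 3 under all of these scalings, against 38.2% and 36.2% of genes tested. Part of this order lay within counting noise by the chi-square test. Replicates 1 and 2 did not differ for Cdkn1b (adjusted p = 0.40), nor replicates 1 and 3 for Cdkn1c (0.54). Relative to the other libraries, Cdkn1a in replicate 3 fell by 0.53 and Cdkn1b by 0.27 on the log2 scale. In the same library Cdk6 fell by 0.60 (adjusted p = 1.3e-181) and Ccnd2 by 0.78 (3.6e-67). Mki67 was instead high in replicate 1, by 0.53 (5.4e-36). Of the 8 mitosis genes, 4 were lowest in replicate 2, against 29% of genes tested, and between 1 and 5 were under the other scalings. Without replicate 3 Cdk6 no longer passed the test (adjusted p = 0.10), and without replicate 1 neither did Mki67 (0.90). Rb1 (0.41), Cdk2 (0.68) and Cdk1 (0.12) did not pass with all libraries.

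**Figure D3:**
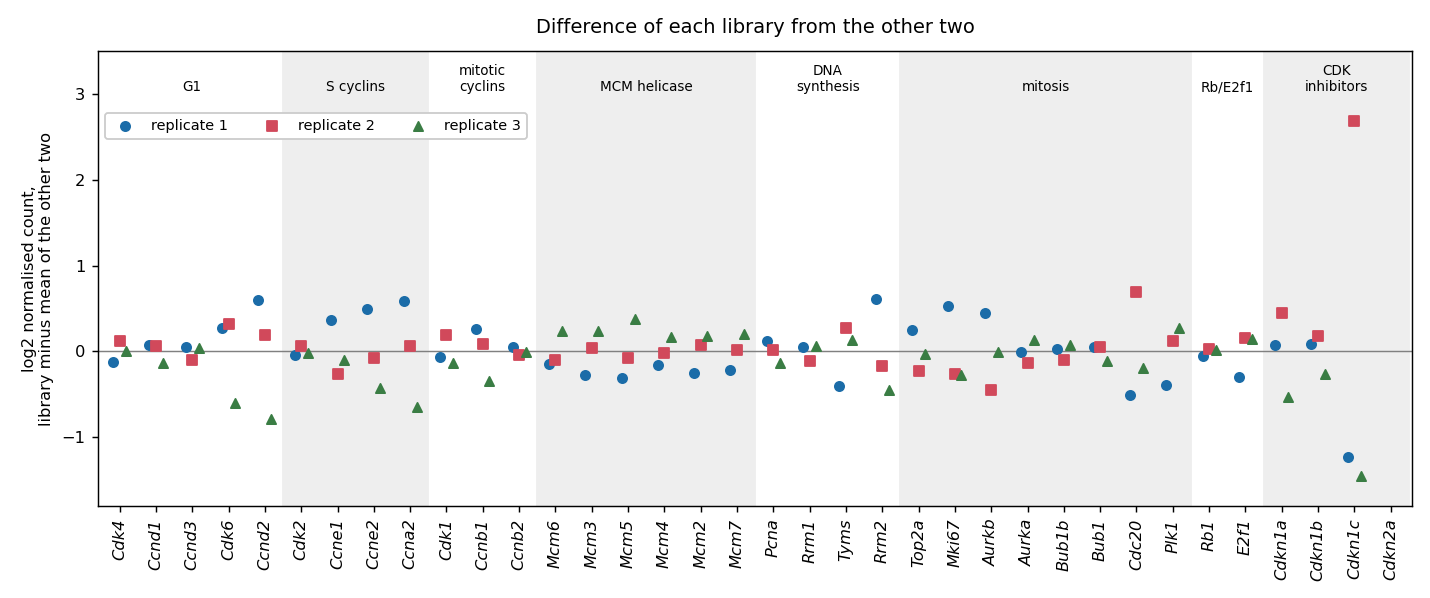
Log2 ratio of each library to the mean of the other libraries (TMM-normalised counts) for the members by role, with Cdkn2a left blank for its low count. The MCM genes lay lowest in replicate 1 and highest in replicate 3, Cdk6 and Ccnd2 lay low in replicate 3, and Cdkn1c reached 2.69 in replicate 2.

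The transcripts behind each level were then examined. For 31 of 36 members a single protein-coding transcript held at least 50% of the gene level in every library. For 26 members coding transcripts together held over 90% in every library. Neither count was made over all detected protein-coding genes, so whether they are unusual was not tested. The median coding share per gene was 99.2% for members and 97.5% for detected protein-coding genes. Summed over members, coding transcripts took 96.2%, 96.5% and 95.7% of TPM, against 93.1%, 93.2% and 92.5% over all detected protein-coding genes. Both deposited quantifications named the same leading transcript for 35 members, a count also not made over all genes. The exception was E2f1, where E2f1-202 held 47.7%, 54.2% and 59.6% and E2f1-201, also coding, the rest. Cdk2, Cdkn1c and Ccne2 likewise spread over several transcripts. Cdk2-202 held 45.1%, 50.6% and 59.1% and Cdk2-201, also coding, most of the rest. Cdkn1c-201 held 61.7%, 54.4% and 38.0%, and the rise in replicate 2 was shared by Cdkn1c-201 (1.08, 5.34 and 0.63 TPM), Cdkn1c-205 (0.52, 2.56 and 0.59) and Cdkn1c-202 (0.15, 1.79 and 0.44). Ccne2-202 held 43.6%, 52.3% and 62.8%, and in replicate 1 the noncoding Ccne2-205 held 47.0% from 5.32 counts.

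Tyms stood apart, since its level came mainly from a form annotated for nonsense-mediated decay, the pathway that destroys RNAs with an early stop codon. Tyms-205 held 61.7%, 66.7% and 76.4%, while the coding Tyms-201 was at 0.14, 0.20 and 0.16 TPM. Counted by coding transcripts alone, a view chosen after the data were seen, Tyms was not detected and 22 members were. Tyms-205 rested on 15.17, 35.72 and 36.96 counts and Tyms-201 on 19.8, 58.7 and 40.3, so the short form led per length and not in reads. In the first quantification retained-intron forms took a large part of Cdk1 and Mcm3. Cdk1-204 held 27.7%, 48.5% and 39.3% of Cdk1, again from fewer counts (18.1, 79.8 and 46.1) than the coding Cdk1-202 (137, 333 and 254). Mcm3-201, its coding form, held 52.3%, 58.3% and 60.2% from 562, 1303 and 1305 counts. The second quantification gave it 70.2%, 85.5% and 83.5%, so the retained-intron share of Mcm3 depended on the quantification. Coding forms of Cdk1 held 61.3%, 51.5% and 56.5% in the first quantification and 63.86%, 53.01% and 62.09% in the second. Top2a-201 held 70.4%, 69.1% and 57.7%, with noncoding processed transcripts as the remainder. Short forms with few reads make these shares imprecise.

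**Figure D4:**
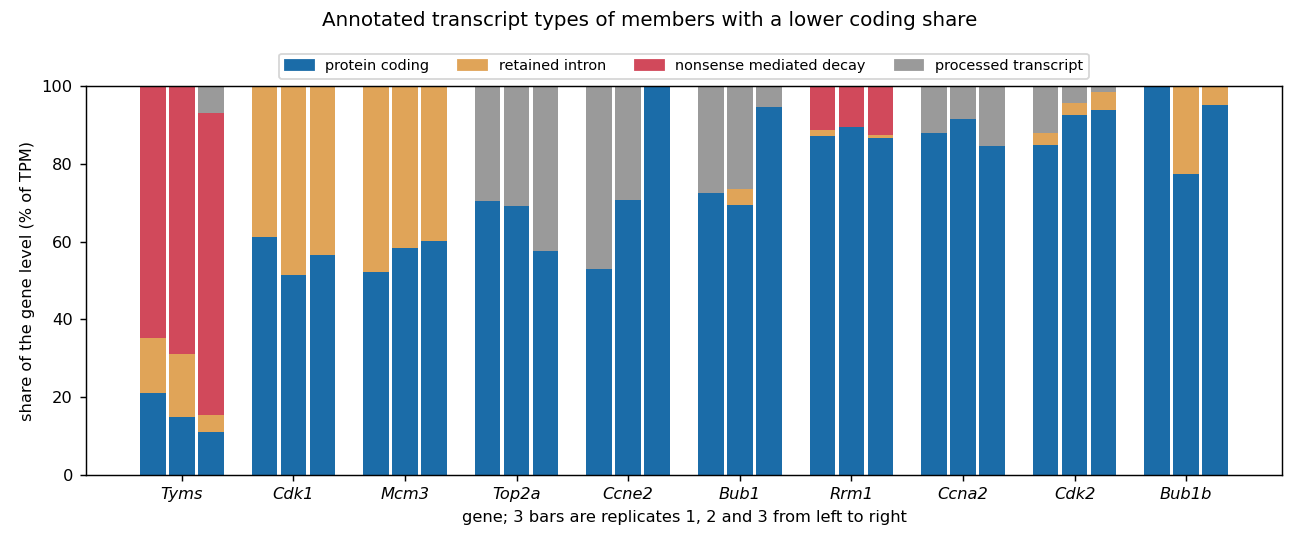
Share of gene TPM in the first quantification by annotated transcript type in replicates 1, 2 and 3 (bars from left to right) for the 10 members whose coding share fell below 90% in a library. Decay-annotated forms led in Tyms, and retained introns took a large part of Cdk1 and Mcm3.

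The second quantification gave lower TPM throughout, by a median log2 of 1.07, 0.93 and 1.54 below the first over detected protein-coding genes. After allowing for this, 0 of 36 members departed by more than 1 on the log2 scale, against 0.650% of 9080 detected protein-coding genes. Several members overlap a gene on the opposite strand, and whether counting used strand is not given in the sources used here. Cdk4 shares 641 bases with Tspan31 (38.6, 30.5 and 34.2 TPM), Ccnd1 shares 1771 with LTO1 (9.61, 7.54 and 8.91), and Ccna2 shares 863 with Exosc9 (10.1, 10.6 and 10.2). Ccne2 with Ints8, Mcm7 with Cops6 and Ap4m1, Rb1 with Rcbtb2 and Lpar6, Cdc20 with Elovl1, and Ccnd3 with Bysl overlap in the same manner. Reads of such partners cannot be told apart without strand.

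Other genes of the pathway, 122 in 5 lists, were read beside the members. Of these 78 were detected in TPM as deposited (63.9%) and 68 of 119 tested differed between libraries (57.1%). Origin licensing and the CMG helicase had 14 of 20 genes detected, from Orc4 (11.2 ± 2.85 TPM, SD, n = 3), Mcmbp (8.85 ± 1.22) and Gins4 (8.35 ± 0.42) down to Gins1 (1.98 ± 0.06). Fork and nucleotide supply genes had 24 of 30 detected, led by Samhd1, which degrades deoxynucleotides in resting myeloid cells, at 378, 290 and 360 TPM. Replicate 2 was its low library. The salvage kinase Dck (30.7 ± 7.66 TPM, SD, n = 3) and the clamp loader subunit Rfc2 (25.5 ± 1.86) came next, and the polymerase subunit Pola1 was lowest of those detected (1.57 ± 0.02).

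Mitotic machinery had 11 of 30 genes detected, led by the securin gene Pttg1 (38.1 ± 5.47 TPM, SD, n = 3), Bub3 (11.4 ± 0.79) and Incenp (10.6 ± 0.71), with Cenpa the lowest detected (1.13 ± 0.13). Of these 30 genes, 20 were highest in replicate 1, against 29.3% of genes tested, and between 16 and 21 were under the other scalings. E2F, Rb and DREAM genes had 13 of 18 detected, led by the histone-binding Rbbp4 (15.8 ± 0.77), the repressor E2f4 (11.8 ± 0.71) and Lin37 (9.97 ± 0.62), with E2f8 at 1.38 ± 0.46. Genes that control the kinases had 16 of 24 detected. The p53 targets Ccng1 (46.8 ± 4.79 TPM), Mdm2 (32.0 ± 5.64) and Btg2 (24.6 ± 7.42) led that list, and the activating phosphatase Cdc25a was lowest of those detected (1.96 ± 0.09). Ccng1 stood at 45.81, 52.01 and 42.58 TPM, Mdm2 at 37.8, 31.6 and 26.5 and Btg2 at 23.6, 32.5 and 17.8. All 3 were lowest in replicate 3, as Cdkn1a was, but Mdm2 was highest in replicate 1 and not in replicate 2. That place was common in the list. By TMM-scaled counts, 15 of its 21 tested genes were lowest in replicate 3, against 36.2% of all genes tested.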

How the data were processed

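Total RNA-seq of 3 libraries was used as deposited. Per the file headers, each feature of the first tables has an expected count, a TPM value and a posterior SD of the count. The interval bounds of TPM, a signal in the units of TPM deposited by the authors, have no stated level and were not used. A second deposited transcript table holds estimated counts and TPM and was summed per gene. Genome build mm10 and annotation GENCODE M21 are named in the notes deposited beside each library. The tools used, their versions and the strand of counting were not given in the sources used here. Rows naming no annotated gene (0.774%, 0.207% and 0.167% of expected counts) were left out. Replicate numbers are those of the labels.

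TMM factors from edgeR 4.0.16 (R 4.3.3) scaled the rounded expected counts. Since 1 group allows no contrast, edgeR gave dispersions from an intercept alone. Differences between libraries were tested by chi-square homogeneity at a mean count of at least 10, adjusted by Benjamini-Hochberg at 0.05 over all genes tested. This compares libraries, not conditions, and covers counting error only. Both methods were tested on simulated data. Pairs used log2(TPM + 0.1), which understates differences of low genes. Tests and summaries ran in scipy 1.17.1, numpy 2.4.6 and pandas 2.3.3 under Python 3.11.15, and DESeq2 1.42.0 gave alternative size factors.

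The members, roles, pairs and lists were chosen with earlier results of these data known. Every member is named. TPM per library is given for the 2 highest and the lowest of each role, for pair members, and for any with 0 counts. Of each other list the 3 highest detected genes and the lowest detected are named. Transcripts are named where no coding transcript holds 50% in every library, where the quantifications disagree, and for Cdkn2a. Other transcripts and Lepr, Elane, Csf1r and the neighbours of Cdkn1c were named after their values were seen.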

Additional observations from a re-analysis of the deposited data

How the results depend on the processing

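Over 16 results and 97 alternatives, 84 kept their call, stayed within 1.5 times of a count or moved a median by less than 1 SD. The SD of a median was taken over the 3 library medians of its set. Beyond these limits lay 8 counts or medians, and 5 pair differences newly passed the 3 SD rule. The replication members were the 10 MCM and DNA synthesis genes. The mitosis members were the 11 genes of the mitosis class and of the mitotic cyclin and Cdk1 class. For replication members the SD was 0.18, about as large as their medians of -0.19 and 0.17 in replicates 1 and 3. In the second quantification replicate 2 was highest at 0.0895, with replicate 3 at 0.0758, yet both counted as within 1 SD. No pair difference changed sign. Medians near 0 did in 4 alternatives, all for replicate 2. The replication members' median of 5.1e-05 became -0.0094 with DESeq2 size factors, -0.00055 with a prior count of 2 and -0.012 where members averaged 100 or more counts, and the mitosis members' changed sign in the second quantification. Against 23 members detected, there were 35 at a limit of 0.1 TPM, 12 at 5 TPM, 32 with TPM rescaled to nuclear protein-coding genes, 19 in the second quantification, and 32 when that was rescaled too, a setting chosen after the data were seen. Differing members numbered 11 to 18 with a replicate left out. With a replicate left out, Ccnd1 minus Ccnd3 ran from 0.14 to 0.23 and Cdk4 minus Cdk6 from 0.65 to 0.98, and calls on 2 libraries rest on an SD of 2 values. Ccnd1 minus Ccnd3 was called at 0.32 in the second quantification. Ccne1 minus Ccne2 was called at 0.98 over coding transcripts alone, an alternative chosen after the data were seen. The median library ratio of mitosis members, 0.05, -0.04 and -0.02 in replicates 1, 2 and 3, became 0.25 in replicate 1 and -0.14 in replicate 2 at a mean count of at least 100, where fewer genes are tested, and 0.067 in replicate 2 and -0.14 in replicate 3 in the second quantification, for which the cause was not tested. No paired analysis was possible because the labels give 1 group. Replicate 1 has the lowest depth, so low members such as Cdkn2a, Plk1, Ccnb2 and Cdc20 are least precise there.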
